A study of Mus musculus with 3 samples.

Results

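The genes described here are 10 Toll-like receptors of the mouse, Tlr1, Tlr2, Tlr3, Tlr4, Tlr5, Tlr6, Tlr7, Tlr8, Tlr9, and Tlr13. They were chosen by gene name, as every probe of the array design that is not a control and carries one of these names. This gave 14 probes on 24 spots per array for 10 of the 34821 gene names of the design. The cells were bone marrow-derived macrophages (BMDMs) of C57BL/6J mice, grown from bone marrow in M-CSF, the growth factor of macrophages. They were stimulated for 20 h in 3 ways, with 1 array per condition. The CpG condition received CpG DNA, the IFN-g+IL-10RB condition received interferon-γ (IFN-γ) with αIL-10R, an antibody that blocks the receptor of IL-10, and the Triple condition received CpG, IFN-γ, and the antibody together. All stimulated cells were thus compared with other stimulated cells, since no array of unstimulated BMDMs and none of IFN-γ or αIL-10R alone was analysed here. The labeled RNA was read on 1-colour Agilent mouse arrays, and the values are processed signals, intensities in arbitrary units on a linear scale. With 1 array per condition there is no replicate spread, so that no difference below has a test or a p-value, and each is a difference between these arrays.

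Toll-like receptors are sensors of microbial molecules that signal through a cytoplasmic TIR domain. TLR1, TLR2, TLR4, TLR5, and TLR6 act mainly at the cell surface, where they recognize lipopeptides, lipopolysaccharide, and flagellin, whereas TLR3, TLR7, TLR8, TLR9, and TLR13 recognize nucleic acids in endosomes and need the chaperone UNC93B1 to get there. Macrophages express many members of the family, and TLR9 is the receptor of the CpG DNA that was used as a stimulus.

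Every array detected 9 of the 10 genes, meaning that their signals were well above background, and no array detected Tlr5. Folds were computed from signals scaled to the 75th percentile of their array, and a gene was called if its higher signal was well above background and more than 2-fold over the other. Of the 9 detected receptors, 4 were called between Triple and IFN-g+IL-10RB, namely Tlr1, which was higher in Triple, and Tlr3, Tlr8, and Tlr13, which were lower, whereas of all 18063 genes compared 6.57% were higher and 9.31% lower. Between CpG and IFN-g+IL-10RB 0 receptors were higher and 2 were lower in CpG, Tlr3 and Tlr13, beside 5.06% higher and 5.84% lower of 18280 genes. Between Triple and CpG 1 receptor was higher in Triple, Tlr6, and 1 was lower, Tlr13, and with 7.47% higher and 8.34% lower of 18335 genes, 1 of 9 in each direction is close to the share of all genes. The median log2 fold of the 9 genes was −0.80, −0.76, and 0.03 in these comparisons, and that of all genes compared was −0.05, 0.00, and −0.06. The 5 endosomal receptors all had their highest signal in IFN-g+IL-10RB, as did Tlr4 among the detected surface receptors. The share of all genes with their highest signal on that array was not computed. Both comparisons with IFN-g+IL-10RB use the same array and are not independent of each other. In such bulk RNA, fewer cells that express a gene and less of its RNA per cell cannot be told apart.

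**Figure D1:**
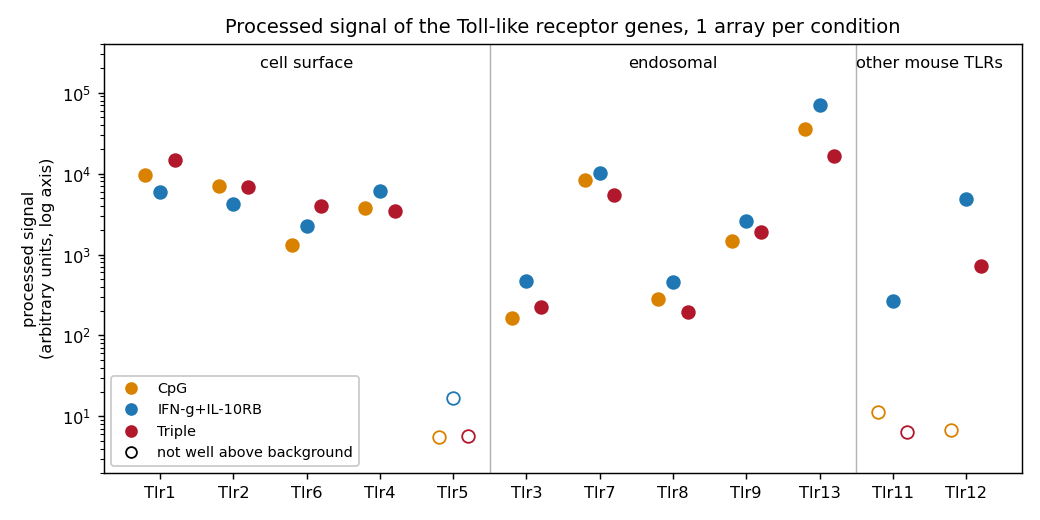
The processed signal (y axis, log scale, arbitrary units) of each Toll-like receptor gene is plotted for the CpG, IFN-g+IL-10RB, and Triple arrays, with 1 point per array and no replicates. Open points are signals not well above background, as for Tlr5 on all arrays. Each endosomal receptor has its highest point in IFN-g+IL-10RB, as do Tlr4, Tlr5, Tlr11, and Tlr12. Heights should be compared within a gene and not between genes, because probes differ in brightness.

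The arrays were alike in general quality. Between 44.4% and 46.0% of the 59305 spots that were not controls were well above background, and none was saturated. Replicate spots of the same probe within an array put the technical SD of a log2 fold from single spots at 0.13, or at 0.22 for signals under 500. Noise between arrays, as from labeling and hybridization, and noise between cultures come on top of this and were not measured. Hereafter a difference is set against 2 of these SD, which is 0.25 for most genes and 0.44 where a signal was under 500. All 5 macrophage markers on the array (Cd68, Adgre1, Itgam, Csf1r, and Fcgr1) were well above background in every condition. Of the markers of other cells, 1 of 4 was detected for B cells, 1 of 4 for T cells, and 0 of 3 for NK cells in each condition. The B cell gene was Cd79a, at 66.6 in CpG, 75.5 in IFN-g+IL-10RB, and 43.6 in Triple. The T cell gene was Cd3e (858, 869, and 806). The B cell genes Ms4a1 and Pax5 and the T cell genes Cd3d and Cd3g were not detected. For fibroblasts 2 of 3 markers were detected, Col1a1 (177, 94.5, and 98.3) and Col1a2 (317, 216, and 319). For dendritic cells it was 2 of 5 in CpG, 3 in IFN-g+IL-10RB, and 4 in Triple, and Flt3 was detected on no array. Their summed signal of 38066, 37289, and 31381 was mostly that of Siglech (36076, 35974, and 29736), which was lowest in Triple, whereas Zbtb46 (25.1, 36.3, and 133) and Xcr1 (6.35, 6.80, and 60.7) were highest in Triple and not well above background in CpG, nor Xcr1 in IFN-g+IL-10RB. The part of any of these cells in the values of the receptors was not tested. Of the 5 neutrophil markers, 3 were detected in CpG, 2 in IFN-g+IL-10RB, and 3 in Triple. Their summed signal was 3489 in CpG, 9354 in IFN-g+IL-10RB, and 4348 in Triple, made up largely by Ly6g, with signals of 555, 7699, and 2658, and Elane, with 2839, 1615, and 1539. Camp stood at 72.9, 17.5, and 139, and Mpo and Ngp were not well above background on any array. Ly6g was thus highest on the same array as the endosomal receptors, while Elane and Camp were not, and the part of such cells in the values was not tested.

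TLR1, TLR2, and TLR6 are the lipopeptide receptors, in which TLR2 pairs with TLR1 for triacylated and with TLR6 for diacylated lipopeptides. The signal of Tlr1 was 9640 in CpG, 5982 in IFN-g+IL-10RB, and 14829 in Triple. It was 2.53-fold higher in Triple than in IFN-g+IL-10RB (log2 fold 1.34), and 4.24% of all genes compared had a larger fold. CpG lay between, 1.58-fold over IFN-g+IL-10RB and 1.60-fold under Triple, and each of these steps exceeded 2 technical SD. The order Triple, CpG, IFN-g+IL-10RB therefore had no neighbours within the noise of the spots.

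Tlr6 had signals of 1313 in CpG, 2262 in IFN-g+IL-10RB, and 3938 in Triple. Its signal in Triple was 3.12-fold over CpG (log2 fold 1.64), with 3.62% of all genes above it, and 1.78-fold over IFN-g+IL-10RB. CpG alone was 1.75-fold lower than IFN-g+IL-10RB. Tlr6 was therefore lowest in CpG, where Tlr1 was lowest in IFN-g+IL-10RB, while both were highest in Triple.

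Tlr2, the shared partner, is measured by 1 probe on 10 spots. In CpG the lowest, median, and highest spot were 6903, 6986, and 7352. In IFN-g+IL-10RB 2 of the spots were marked as outliers, and the remaining 8 lay between 4144 and 4353 with a median of 4285. In Triple the spots lay between 6125 and 7558 with a median of 6944. The spots of IFN-g+IL-10RB were all below those of the other arrays, whereas the spots of CpG and Triple overlapped. Tlr2 was 1.62-fold higher in CpG and 1.66-fold higher in Triple than in IFN-g+IL-10RB, and CpG and Triple differed by 0.03 on the log2 scale, within the noise.

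The first 30 bases of the 60-base probes of these 3 genes are shown because the genes encode partners of each other. The longest run of bases shared by any probes of different Toll-like receptors was 8, and matches of a probe to the transcripts of other receptors were not analysed here. The Tlr1 probe lies at chr5:65316115-65316174, the Tlr6 probe at chr5:65344365-65344424, and the Tlr2 probe at chr3:83640344-83640403, all on the minus strand of mm9 according to the array's annotation. Whether they lie in coding or untranslated sequence was not analysed here.
Tlr1 probe: caagcatggacttttttgggcaaacctaag
Tlr6 probe: ttatgaagttagccttagtcaatgaggatg
Tlr2 probe: ccttggatgaaggccagcaggaagtgtttt

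In RefSeq (GRCm38.p6), Tlr1 and Tlr6 are 19.5 kb apart on chromosome 5 with 0 genes between them. Promoter windows of 300 bases, from 250 before to 50 after a start, were searched on both strands for 4 motifs of factors known to act in macrophages. These were the ISRE of interferon-activated factors (GAAANNGAAA), the GAS, an IFN-γ-activated sequence (TTCNNNGAA), the NF-κB consensus, and the core of PU.1 sites (GAGGAA). RefSeq gives each of the 2 genes more than 1 start, and the windows are printed, all on the minus strand, because both genes had their highest signal in Triple. Capitals mark motif matches.
Tlr1 upstream start, chr5:64933509-64933808: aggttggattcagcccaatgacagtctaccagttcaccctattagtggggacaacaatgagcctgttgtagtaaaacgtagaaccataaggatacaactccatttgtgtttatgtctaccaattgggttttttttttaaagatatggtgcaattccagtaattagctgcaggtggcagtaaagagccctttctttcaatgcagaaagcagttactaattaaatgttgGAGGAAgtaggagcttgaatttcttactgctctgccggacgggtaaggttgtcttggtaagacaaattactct
Tlr1 downstream start, chr5:64932650-64932949: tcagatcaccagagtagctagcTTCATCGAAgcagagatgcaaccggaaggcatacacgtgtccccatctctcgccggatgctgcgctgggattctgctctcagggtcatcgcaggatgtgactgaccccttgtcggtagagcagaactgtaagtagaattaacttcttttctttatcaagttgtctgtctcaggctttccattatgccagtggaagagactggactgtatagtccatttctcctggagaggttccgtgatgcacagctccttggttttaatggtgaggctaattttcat
Tlr6 upstream start, chr5:64959999-64960298: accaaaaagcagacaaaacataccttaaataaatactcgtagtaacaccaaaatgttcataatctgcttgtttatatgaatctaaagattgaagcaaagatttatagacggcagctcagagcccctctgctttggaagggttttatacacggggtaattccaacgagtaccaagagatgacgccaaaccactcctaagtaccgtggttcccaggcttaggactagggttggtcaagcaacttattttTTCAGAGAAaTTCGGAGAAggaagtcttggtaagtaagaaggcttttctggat
Tlr6 downstream start, chr5:64959117-64959416: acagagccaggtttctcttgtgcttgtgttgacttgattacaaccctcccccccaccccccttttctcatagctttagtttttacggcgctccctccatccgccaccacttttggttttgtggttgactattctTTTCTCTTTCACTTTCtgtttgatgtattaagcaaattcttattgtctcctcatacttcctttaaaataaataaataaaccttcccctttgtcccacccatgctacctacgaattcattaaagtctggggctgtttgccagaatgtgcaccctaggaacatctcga

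The upstream window of Tlr1 held a PU.1 core 23 bases before the start, and its downstream window a GAS match 228 bases before the start. Tlr6 held GAS matches 3 bases before and 8 bases after its upstream start, and a pair of overlapping ISRE matches 116 and 110 bases before its downstream start. Of 32851 windows of all genes, 3.44% held an ISRE match, 8.30% a GAS match, 8.46% an NF-κB match, and 28.3% a PU.1 core. A match is a description of the sequence, and no binding was measured.

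TLR4 recognizes lipopolysaccharide together with MD-2 (Ly96) and CD14. Its main probe gave 3748 in CpG, 6083 in IFN-g+IL-10RB, and 3421 in Triple. Tlr4 was 1.65-fold lower in CpG and 1.74-fold lower in Triple than in IFN-g+IL-10RB, and CpG and Triple differed by 0.08 on the log2 scale, within the noise. The probe has 2 spots, of which 1 was marked as an outlier on each array, not always the same one. With both spots kept, Tlr4 stood at 3598, 6302, and 3432. The sign of the small difference between Triple and CpG was not stable, since it ranged from −0.28 to 0.05 over the alternative ways of processing. A second Tlr4 probe, designed on another transcript, was not well above background on any array.

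TLR5 recognizes flagellin. Its probe gave 5.51 in CpG, 16.9 in IFN-g+IL-10RB, and 5.77 in Triple, none of them well above background, so that no fold is given.

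TLR13, the mouse receptor of bacterial ribosomal RNA, differed most among the 10 genes. Its signal was 35364 in CpG, 71401 in IFN-g+IL-10RB, and 16630 in Triple. Triple was 4.20-fold lower than IFN-g+IL-10RB (log2 fold −2.07), and 2.55% of all genes had a more negative fold. CpG lay between, 2.05-fold below IFN-g+IL-10RB and 2.05-fold above Triple. These last folds were just past the 2-fold threshold, at −1.04 and −1.03 on the log2 scale, and fell inside it under some other scalings (down to −0.99 and −0.96), whereas the difference between Triple and IFN-g+IL-10RB stayed between −2.21 and −1.96.

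The Tlr13 probe, whose first 30 bases follow, lies at chrX:103355773-103355832 on the plus strand of mm9. The promoter window of Tlr13 (GRCm38.p6, chrX:106143025-106143324, plus strand) is shown as that of the member with the widest range of signals. It held 1 PU.1 core, in capitals, 83 bases before the start, and no match to the other motifs.
Tlr13 probe: tgagtaacccttcacctatgttcttgtaag
Tlr13 promoter: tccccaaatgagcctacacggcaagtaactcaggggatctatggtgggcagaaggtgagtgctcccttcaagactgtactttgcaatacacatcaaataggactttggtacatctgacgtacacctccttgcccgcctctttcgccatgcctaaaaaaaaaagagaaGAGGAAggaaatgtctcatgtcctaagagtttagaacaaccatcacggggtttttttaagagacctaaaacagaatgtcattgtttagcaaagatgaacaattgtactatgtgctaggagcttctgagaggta

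TLR9, the receptor of CpG DNA itself, had signals of 1473 in CpG, 2566 in IFN-g+IL-10RB, and 1887 in Triple. It was 1.77-fold lower in CpG and 1.33-fold lower in Triple than in IFN-g+IL-10RB, and 1.33-fold higher in Triple than in CpG. Each step exceeded 2 technical SD, and none reached 2-fold. The lowest of the 3 signals was thus that of the condition with CpG and neither IFN-γ nor αIL-10R. The first 30 bases of the Tlr9 probe (chr9:106128979-106129038, plus strand, mm9) are printed because Tlr9 encodes the receptor of a stimulus.
Tlr9 probe: ctggttcccgagttgctctgcctgccttgc

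TLR3 recognizes double-stranded RNA. Tlr3 was dim, with signals of 162 in CpG, 467 in IFN-g+IL-10RB, and 228 in Triple. It was 2.93-fold lower in CpG than in IFN-g+IL-10RB (log2 fold −1.55), with 2.96% of all genes lower, and this fold was between −1.59 and −1.24 in the alternatives. The 2.01-fold difference between Triple and IFN-g+IL-10RB lay on the threshold (log2 fold −1.004) and was called in 7 of 13 alternatives. Among these 7, the changes of filter and of probe left the fold at −1.004, since Tlr3 has a single probe. The others were spike-in scaling, no scaling, and values relative to Actb. Triple was 1.46-fold over CpG.

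TLR7 and TLR8 belong to the receptors of single-stranded RNA, and their genes are neighbours on the X chromosome, 39.1 kb apart with 0 genes between them. Tlr7 had signals of 8262 in CpG, 10229 in IFN-g+IL-10RB, and 5380 in Triple, so that it was 1.86-fold lower in Triple and 1.26-fold lower in CpG than in IFN-g+IL-10RB. A second probe of the same transcript gave 7782, 10970, and 5171, in the same order of conditions, and with it the fold of Triple over IFN-g+IL-10RB was −1.05 on the log2 scale, past 2-fold, against −0.90 with the first. The call for Tlr7 therefore depended on the probe. The other Tlr7 probe, designed on a different transcript, was not well above background on any array.

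Tlr8 was measured by a pair of probes. The brighter gave 278 in CpG, 464 in IFN-g+IL-10RB, and 194 in Triple. The other gave 182, 390, and 132. Both had the order IFN-g+IL-10RB, CpG, Triple. The log2 fold of Triple over IFN-g+IL-10RB was −1.23 (2.35-fold lower) with the first probe and −1.53 with the second, and the log2 fold of CpG over IFN-g+IL-10RB was −0.76 with the first and −1.13 with the second. Only the second probe passed 2-fold in the latter comparison. Tlr7 and Tlr8 shared the order of their conditions with Tlr13.

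**Figure D2:**
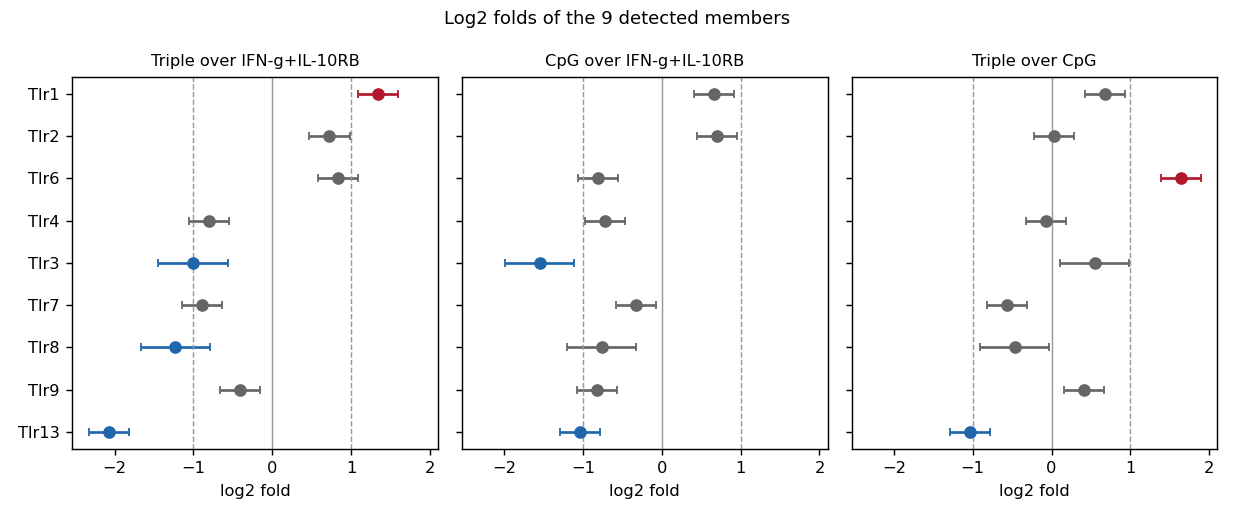
Log2 folds (x axis) of the 9 detected members are plotted for each of the 3 comparisons, with bars of 2 technical SD, dashed lines at 2-fold, red points called higher, blue points called lower, and grey points within 2-fold. The bars come from spots within an array and do not include noise between arrays or differences between cultures. Of 27 folds, 25 lie more than 2 technical SD from 0, but of the 8 called folds only 4 lie more than 2 technical SD past the threshold. The comparisons share arrays, so the 27 folds are not independent. The share of all genes that lie as far from 0 was not computed.

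The 4 calls that lay farther than 2 technical SD past the threshold were Tlr1 and Tlr13 in Triple over IFN-g+IL-10RB, Tlr3 in CpG over IFN-g+IL-10RB, and Tlr6 in Triple over CpG. These 4 were also called in all of the 13 alternatives that kept the 2-fold threshold. Those alternatives are not separate checks, because changes of filter or of probe cannot move the fold of these single-probe genes. By location, 3 of the 4 detected surface receptors had a positive log2 fold in Triple over IFN-g+IL-10RB, with a median of 0.78, and 0 of the 5 endosomal receptors did, with a median of −1.004. In CpG over IFN-g+IL-10RB it was 2 of 4 (median −0.03) and 0 of 5 (median −0.83). In Triple over CpG it was 3 of 4 (median 0.35) and 2 of 5 (median −0.47), the latter being Tlr3 and Tlr9. The median of all genes compared was −0.05, 0.00, and −0.06 in these comparisons, and their share with a positive log2 fold was not computed. The surface median of 0.78 lay between Tlr2 (0.73) and Tlr6 (0.83), neither of which was called. With 4 and 5 genes, no difference between the locations was tested.

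**Figure D3:**
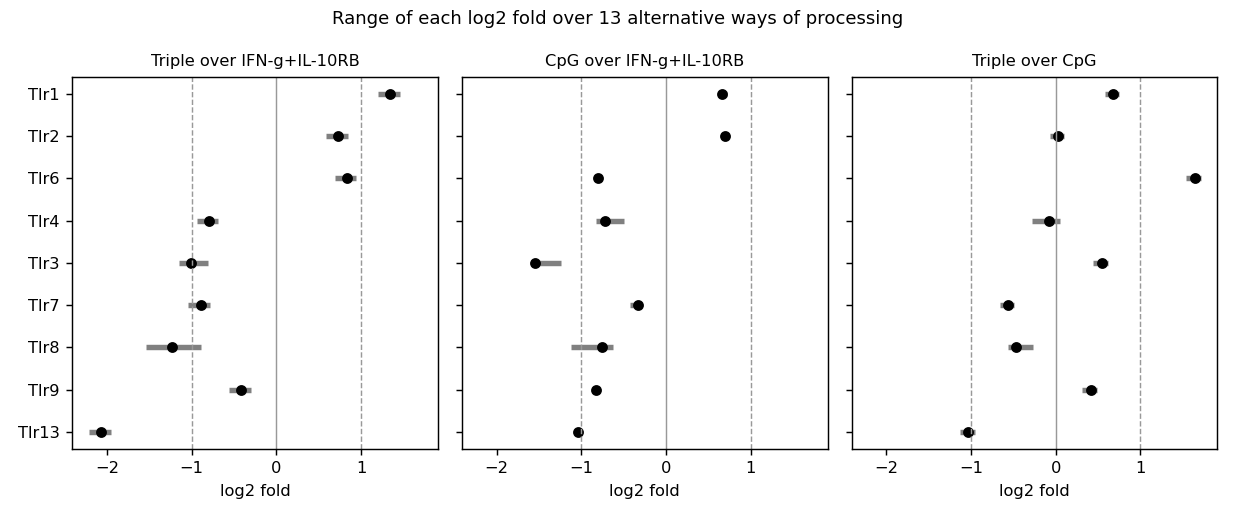
Black points are the log2 folds (x axis) given in the text for the 9 detected members, and grey bars span their lowest and highest value over 13 alternative ways of processing, with dashed lines at 2-fold. The bar of Tlr13 in Triple over IFN-g+IL-10RB runs from −2.21 to −1.96, and the bars of Tlr2 and Tlr4 in Triple over CpG cross 0.

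Mice have further Toll-like receptors that humans lack as functional genes, among them TLR11 and TLR12, which recognize profilin of Toxoplasma in endosomes and also depend on UNC93B1. Tlr12 had a signal of 6.70 in CpG, which was not well above background, 4834 in IFN-g+IL-10RB, and 717 in Triple. It was at least 207-fold lower in CpG and 6.59-fold lower in Triple than in IFN-g+IL-10RB, and at least 31.4-fold higher in Triple than in CpG. Tlr11 was well above background only in IFN-g+IL-10RB, at 269, against 11.4 in CpG and 6.35 in Triple. It was at least 11.5-fold lower in CpG and at least 9.99-fold lower in Triple. These bounds set a dim signal to the lowest one well above background on its array, which was 23.8 in CpG, 26.7 in IFN-g+IL-10RB, and 26.3 in Triple. With normexp background correction the log2 folds of Tlr11 were −1.93 in CpG and −1.78 in Triple relative to IFN-g+IL-10RB, and those of Tlr12 were −5.60 for CpG over IFN-g+IL-10RB and 3.01 for Triple over CpG. Each gene has a single spot, and both spots lie in the first 48 of the 384 rows of the array. The effect of that position on these signals was not tested.

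Probes and promoters of these genes are shown because their signals spanned the widest range among the mouse receptors on the array. The Tlr12 probe lies at chr4:128292690-128292749 on the minus strand and the Tlr11 probe at chr14:50983110-50983169 on the plus strand of mm9. The windows (GRCm38.p6) are chr4:128618570-128618869, minus strand, for Tlr12 and chr14:50357664-50357963, plus strand, for Tlr11.
Tlr12 probe: ccgcggggtatgtgacattcccaagatctt
Tlr11 probe: caagggggcaaaatgatatattaaattcca
Tlr12 promoter: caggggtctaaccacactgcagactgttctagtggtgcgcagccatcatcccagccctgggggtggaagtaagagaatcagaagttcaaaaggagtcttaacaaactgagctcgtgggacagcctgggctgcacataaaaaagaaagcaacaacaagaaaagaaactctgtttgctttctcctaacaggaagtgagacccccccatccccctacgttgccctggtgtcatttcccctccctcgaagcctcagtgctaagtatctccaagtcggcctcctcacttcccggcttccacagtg
Tlr11 promoter: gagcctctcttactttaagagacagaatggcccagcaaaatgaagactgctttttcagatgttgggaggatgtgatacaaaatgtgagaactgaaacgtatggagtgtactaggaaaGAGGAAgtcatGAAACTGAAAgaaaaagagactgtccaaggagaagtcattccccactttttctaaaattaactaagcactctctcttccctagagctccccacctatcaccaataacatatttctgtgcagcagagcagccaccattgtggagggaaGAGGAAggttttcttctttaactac

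The window of Tlr11 held an ISRE match 122 bases before the start and PU.1 cores 133 bases before and 26 bases after it. The window of Tlr12 held no match to the 4 motifs. The windows searched were the 12 of Tlr11, Tlr12, and the members other than Tlr4 and Tlr7. Of these 10 genes, an ISRE match was found in 2 (Tlr6 and Tlr11) and a GAS match in 3 (Tlr1, Tlr6, and Tlr8). An NF-κB match was found in 2 (Tlr2 and Tlr3), and a PU.1 core in 5 (Tlr1, Tlr8, Tlr9, Tlr11, and Tlr13). By window these were 2, 3, 2, and 5 of 12, beside 3.44%, 8.30%, 8.46%, and 28.3% of the windows of all genes. The counts were not tested.

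The proteins that surface receptors need for ligand binding differed from one another. Cd14, which hands lipopolysaccharide to TLR4, had signals of 55389 in CpG, 5534 in IFN-g+IL-10RB, and 90961 in Triple, so that it was 9.84-fold higher in CpG and 16.8-fold higher in Triple than in IFN-g+IL-10RB. Ly96 had 7408, 5203, and 6836, with no fold over 1.40. The conditions were thus ordered for Cd14 as for Tlr1, and Tlr4 was highest where Cd14 was lowest. Cd180, a TLR-like surface protein, had 1291, 3856, and 2322, and was 3.04-fold lower in CpG than in IFN-g+IL-10RB. Its partner Ly86 (MD-1) had 27477, 121780, and 26848, and was 4.51-fold lower in CpG and 4.44-fold lower in Triple than in IFN-g+IL-10RB. Of the 7 co-receptors on the array, 5 were detected. Counts of called genes in the lists that follow stand beside the shares of all genes compared. In Triple over IFN-g+IL-10RB these were 6.57% higher and 9.31% lower. In CpG over IFN-g+IL-10RB they were 5.06% and 5.84%, and in Triple over CpG 7.47% and 8.34%.

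The chaperones and trafficking factors of the receptors differed less. Unc93b1, which carries the endosomal receptors out of the endoplasmic reticulum, had signals of 73980 in CpG, 80658 in IFN-g+IL-10RB, and 90627 in Triple, all within 1.27-fold of each other. Of 15 such genes tested, 1 was called in Triple over IFN-g+IL-10RB, where Slc15a3, an endolysosomal transporter of histidine and peptides, was 4.64-fold higher. It was also 3.22-fold higher in Triple than in CpG, with signals of 25360, 17292, and 78524. In Triple over IFN-g+IL-10RB, 1 of 15 is close to the 6.57% of all genes that were higher. In CpG over IFN-g+IL-10RB the 1 call was Slc29a3, a lysosomal nucleoside transporter, 2.17-fold lower. The median log2 fold of the 15 genes was 0.08, 0.18, and −0.04 in Triple over IFN-g+IL-10RB, CpG over IFN-g+IL-10RB, and Triple over CpG, and the first and last of these changed sign under another processing.

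Endolysosomal proteases cut the ectodomains of the endosomal receptors. Of 8 detected, 1 was called in Triple over IFN-g+IL-10RB, Ctsf, which was 2.68-fold lower, and 2 in CpG over IFN-g+IL-10RB, Ctsk (4.38-fold higher) and Ctsl (2.16-fold higher). In Triple over CpG 3 were lower, Ctsf (2.74-fold), Ctsl (2.44-fold), and Ctsk (2.22-fold), and the median log2 fold was −0.51. Among 8 detected nucleases and carriers of nucleic acids, Dnase1l3, a secreted DNase, stood at 595 in IFN-g+IL-10RB and 653 in Triple but was not well above background in CpG (15.4), which made it at least 25.5-fold lower in CpG than in IFN-g+IL-10RB and at least 28.6-fold lower than in Triple. Dnase1l3 and Tlr12 were both dim in CpG alone, but Dnase1l3 was highest in Triple and Tlr12 in IFN-g+IL-10RB. Camp, the precursor of a peptide that binds nucleic acids, was dim, with 72.9 in CpG, 17.5 in IFN-g+IL-10RB (not well above background), and 139 in Triple, at least 5.32-fold higher in Triple and at least 2.69-fold higher in CpG than in IFN-g+IL-10RB. Camp is also one of the neutrophil markers.

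The TIR adaptors carry the signal from the receptors. Of 5 detected, 2 were higher in Triple than in IFN-g+IL-10RB, Ticam2 (TRAM), 3.57-fold, and Ticam1 (TRIF), 2.49-fold, both of which serve TLR4, and the median log2 fold was 0.84. Ticam2 had signals of 160 in CpG, 90.2 in IFN-g+IL-10RB, and 315 in Triple, and was 2.05-fold higher in Triple than in CpG. No adaptor was called in CpG over IFN-g+IL-10RB, where the median was 0.59. Of 7 IRAK, TRAF, and Pellino genes, 2 were higher and 1 lower in Triple than in IFN-g+IL-10RB, 1 was higher in CpG than in IFN-g+IL-10RB, and 2 were higher in Triple than in CpG. Irak3 (IRAK-M), an inhibitor of the pathway, was 8.72-fold higher in Triple and 8.77-fold higher in CpG than in IFN-g+IL-10RB, with signals of 7877 in CpG, 883 in IFN-g+IL-10RB, and 7541 in Triple. Irak2 was 2.66-fold higher in Triple than in IFN-g+IL-10RB and 2.24-fold higher than in CpG, Peli1 was 2.61-fold higher in Triple than in CpG, and Peli2 was 2.32-fold lower in Triple than in IFN-g+IL-10RB.

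Of 13 detected negative regulators, 6 were higher and 0 lower in Triple than in IFN-g+IL-10RB (median log2 fold 0.58), led by Pilra, an inhibitory receptor, 14.3-fold, and Irak3. Of all genes compared, 6.57% were higher and 9.31% lower there. Irak3 is also counted among the IRAK genes above. In CpG over IFN-g+IL-10RB 5 regulators were higher and 1 lower (median 0.51). The higher ones were Pilra (9.32-fold), Irak3, Zc3h12a, Tnip1, and Tnip3. The lower one was Socs1, an inhibitor of cytokine signaling induced by IFN-γ, which had signals of 1059 in CpG, 40651 in IFN-g+IL-10RB, and 50881 in Triple and was 39.0-fold lower in CpG. In Triple over CpG, Socs1 (49.9-fold) and Tnfaip3 (A20), a deubiquitinase (3.80-fold), were higher, and Cd200r1, an inhibitory receptor, was 2.64-fold lower. Of the receptors of the IL-1 family, which share the TIR domain, 1 of 5 on the array was detected (Il1rap), and it was not called.

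Other sensors of nucleic acids and of bacteria gave a comparison for the endosomal receptors. Of 11 cytosolic nucleic acid sensors, 1 was called in Triple over IFN-g+IL-10RB, Mb21d1 (cGAS), 2.12-fold lower. In CpG over IFN-g+IL-10RB 2 were lower, Tmem173 (STING), 5.75-fold, and Zbp1, 3.03-fold, and in Triple over CpG 4 were higher, Zbp1 (3.23-fold), Tmem173 (2.89-fold), Dhx58, and Ifih1. Their medians were −0.13, −0.56, and 0.57, against −1.004, −0.83, and −0.47 for the endosomal receptors in the same order. Of 7 NOD-like receptors, 1 was higher and 1 lower in Triple than in IFN-g+IL-10RB, 3 were lower in CpG than in IFN-g+IL-10RB, and 2 were higher in Triple than in CpG. Nlrp1b was 4.20-fold lower in Triple and 3.91-fold lower in CpG than in IFN-g+IL-10RB. Nlrp3 was 2.26-fold higher in Triple than in IFN-g+IL-10RB, and Nlrp3 and Nod2 were 6.14-fold and 5.16-fold higher in Triple than in CpG. Nod2 was 3.06-fold and Nlrp3 2.72-fold lower in CpG than in IFN-g+IL-10RB.

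Transcription factors known to act on Toll-like receptor genes were compared last. Of 10 detected, 5 were lower in CpG than in IFN-g+IL-10RB (median log2 fold −0.84), led by Irf1 (14.7-fold) and Irf8 (3.89-fold), both of which IFN-γ induces, with Irf2 and Stat2 also among them. Irf1 had signals of 9196 in CpG, 132675 in IFN-g+IL-10RB, and 123964 in Triple, and Irf8 had 20183, 77123, and 89361. In Triple over CpG 4 were higher, among them Irf1 (14.0-fold), Irf8 (4.60-fold), and Nfkb1, and 1 was lower. Irf1 and Irf8 were thus more than 2-fold over CpG in both conditions with IFN-γ and αIL-10R, which held for Tlr12 and for none of the 9 detected members. Spi1, which encodes PU.1 and is named Sfpi1 on the array, was 2.16-fold higher in Triple than in IFN-g+IL-10RB, with signals of 3061, 1908, and 4032, in the order of Tlr1. The other genes with a PU.1 core in a window, Tlr8, Tlr9, Tlr11, and Tlr13, were highest in IFN-g+IL-10RB, where Spi1 was lowest. The part of PU.1 in these values was not tested. Cebpa, a factor of myeloid differentiation and the lower gene in both comparisons of Triple, had 1399, 1101, and 214, and was 5.05-fold lower in Triple than in IFN-g+IL-10RB and 6.30-fold lower than in CpG.

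**Figure D4:**
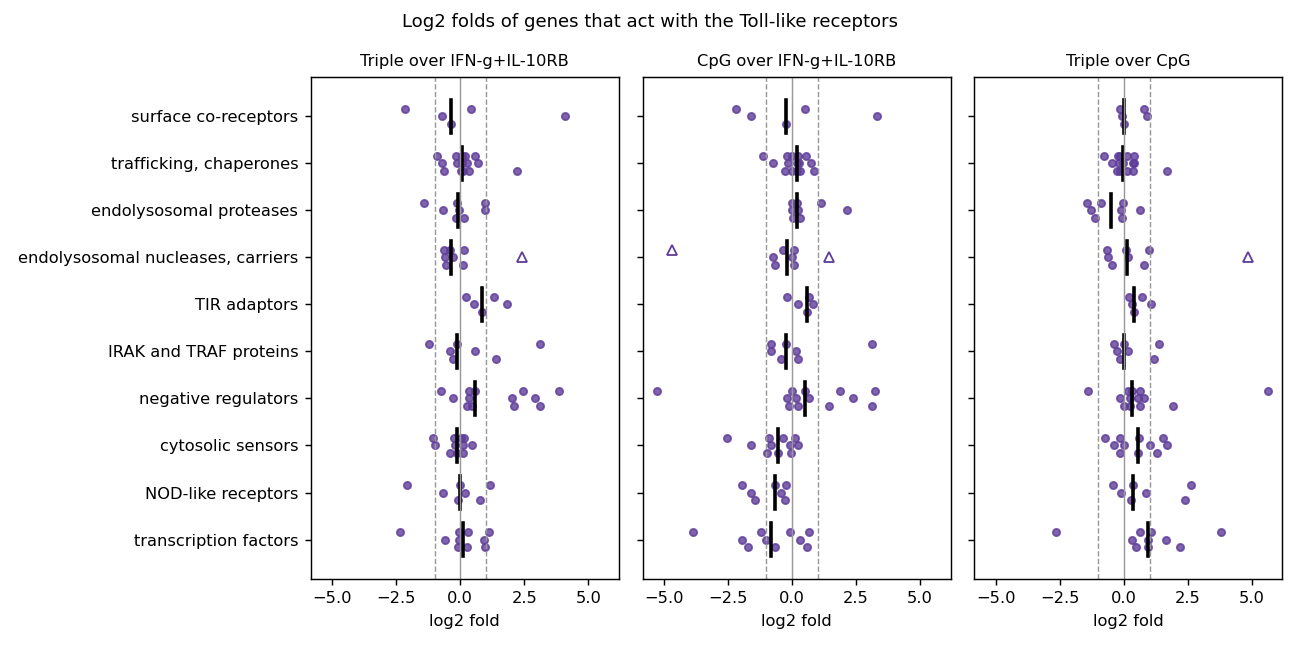
Each purple point is the log2 fold (x axis) of 1 detected gene of the lists on the y axis, each black bar is the median of a list, open triangles are lower bounds of the size of a fold, and dashed lines mark 2-fold. The 5 negative regulators higher in CpG than in IFN-g+IL-10RB lie on the right, Socs1 lies far to the left, and the transcription factors have a median of −0.84 in the same comparison.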

How the data were processed

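Per the file headers, the deposited scanner files came from Agilent Feature Extraction 10.10.1.1, and their processed signal is an intensity after background subtraction. A deposited table by the authors holds log2 values, and each of its columns was the log2 processed signal minus a constant, to within 0.01 for over 99% of probes. That table was used as an alternative.

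Controls and spots flagged as outliers by the software were dropped. The log2 signals of a probe's remaining spots were averaged and scaled to the 75th percentile of the array, for which the 21233 probes that every array detected well above background were used, because under 50% of probes were detected. A probe counted as well above background if this held for more than 0.5 of its spots. A gene was its probe with the highest mean. Signals not well above background were raised to the lowest signal that was, which makes a fold against them a lower bound, while genes dim on both arrays got no fold. The arrays shared 1 slide and 1 scan time. Each condition had 1 array, so that there is no replicate and no test.

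The genes named are all members, Tlr11 and Tlr12, up to 2 called genes with the largest fold per list, comparison, and direction, and Unc93b1, Cd14, Ly96, and Cd180. Other list genes are named where 5 or fewer were called or a marker had to be shown, and were chosen after their values were seen. Single values of some list genes are not reported here. The members and lists were chosen with earlier results of these data known. Of 156 list genes, 15 were not found on the array and 4 were found under an older name. The RefSeq table of GRCm38.p6 held 26090 of the 27648 RefSeq accessions of the probes, and all 10 members were found by symbol. Promoter sequences are from RefSeq, and probe positions (mm9) come from the scanner files. Alternatives included other scalings, filters, probes, and thresholds, and a normexp correction of the background (limma 3.58.1 in R 4.3.3, offset 50). Code was tested on simulated arrays. Python 3.11.15 was used, with pandas 2.3.3, numpy 2.4.6, and matplotlib 3.10.9.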

Additional observations from a re-analysis of the deposited data

How the results depend on the processing

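The number of called receptors was 4 for Triple over IFN-g+IL-10RB, 2 for CpG over IFN-g+IL-10RB, and 2 for Triple over CpG. In Triple over IFN-g+IL-10RB it was 2 with normexp background correction, 8 with a 1.5-fold threshold, and 1 with a 3-fold threshold. It was 3 there with the 75th percentile over all probes, quantile normalization, median scaling, the authors' table, or outlier spots kept. With spike-in scaling, or with no filter and no lower limit, it was 5. In CpG over IFN-g+IL-10RB it was 1 with the 75th percentile over all probes, 1 with the authors' table, 8 with a 1.5-fold threshold, and 0 with a 3-fold threshold. In Triple over CpG it was 1 with the 75th percentile over all probes, 1 with median scaling, 1 with the authors' table, and 1 with a 3-fold threshold. No called fold of a Toll-like receptor changed its direction under any alternative. Tlr3 in Triple over IFN-g+IL-10RB lost its call in 6 of 13 alternatives, Tlr8 there with normexp alone (log2 fold −0.90), and Tlr13 in CpG over IFN-g+IL-10RB and in Triple over CpG under scalings that moved it across the threshold. Changes of filter or of probe could not move members with a single probe, such as Tlr1, Tlr3, Tlr6, and Tlr13. Some list medians changed sign under at least 1 alternative. In Triple over IFN-g+IL-10RB these were surface co-receptors (0.00), trafficking factors (down to −0.07), endolysosomal proteases (up to 0.02), NOD-like receptors (up to 0.10), and transcription factors (−0.05), and in Triple over CpG they were surface co-receptors (down to −0.08), trafficking factors (up to 0.10), and IRAK and TRAF proteins (up to 0.07). The list of IL-1 family receptors, with 1 detected gene, changed sign in all 3 comparisons. The median of all genes in Triple over IFN-g+IL-10RB moved by −0.14 with spike-in scaling and by 0.11 with the 75th percentile over all probes, median scaling, or the authors' table. Over all genes, normexp lowered the number higher in CpG than in IFN-g+IL-10RB from 925 to 554, and leaving out the filter raised it to 2369. The number lower in Triple than in IFN-g+IL-10RB was 1681, 1100 with normexp, and 3088 without a filter. No paired analysis was possible because there was only 1 array per condition, and for the same reason no array was left out. Signals under 500, as for Tlr3 and Tlr8, had a larger technical SD.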
